A study of Mus musculus with 10 samples.

Results

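Pericellular proteolysis genes, whose products act in protein breakdown at the cell surface, were represented by Plaur, Sdc1, Timp1 and Mmp9, which were followed across every array of a study of mouse macrophages. Each was the feature whose only gene symbol in the platform table was that name, which gave 4 genes with 1 feature each out of 9596 features and 8905 genes or features tested. The genes were chosen from earlier results of these same arrays, so their values in the comparisons are a description with no test. Per the labels, tumour-associated macrophages (TAM) were taken 3 weeks after tumour implantation and peritoneal exudate cells (PEC), called peritoneal macrophages in the labels, were harvested as adherent cells, both from C57/6N black mice of 8 weeks. The cells were kept in culture without treatment or with lipopolysaccharide (LPS), a component of bacterial outer membranes, at 100 ng/mL for 4 hours. The tumour type, the number of animals and any pooling are not stated in the labels.

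Total RNA of 2 conditions was hybridised to each of 10 two-colour spotted cDNA arrays, and the deposited value is the log ratio of the channels, taken here as log2. The tested over reference conditions were untreated TAM over untreated PEC on 4 arrays (TAM-b and TAM-3, with TAM-2R and TAM-8), PEC with LPS over untreated PEC on 2 arrays (PEC1 and PEC2), TAM with LPS over untreated TAM on 2 arrays (TAM-trial and TAM-16), and TAM with LPS over PEC with LPS on 2 arrays (TAM1 and TAM7). The labels list the channels of TAM-2R and TAM1 in the opposite order, and their signs were turned. No dye is named, so the directions are not settled. With the ratio read as channel 2 over channel 1, 40 of 44 measured genes known to respond to LPS lay above 0 on PEC1 and 41 of 44 on PEC2. That check does not reach the other arrays. It also does not show whether the deposited values of TAM-2R and TAM1 had already been turned. After turning, TAM-2R correlated weakly over all genes with the other arrays of its comparison (r = 0.08 with TAM-b, 0.036 with TAM-3 and 0.101 with TAM-8), and TAM1 correlated with TAM7 at r = 0.293. TAM-3, which was not turned, was as weak (0.08 with TAM-b and 0.054 with TAM-8), so weak values were not particular to a turned array. PEC1 and PEC2 correlated at 0.269, and TAM-trial and TAM-16 at 0.096. The highest values joined arrays of different comparisons from print v9p2: TAM-8 with TAM7 (0.568), TAM-8 with TAM-trial (0.52) and TAM7 with TAM-trial (0.433). The labels do not say that arrays of a comparison came from separate animals or cultures, so p-values measure the spread between arrays, which may be technical. A ratio gives no absolute level, and intensities were not used here, so whether a gene was near background in either channel is unknown.

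Pericellular proteolysis is the cutting of matrix and membrane proteins in the narrow space around a cell. The urokinase receptor, encoded by Plaur, holds the protease urokinase at the cell surface, where plasminogen is turned into plasmin. Plasmin can in turn help to activate metalloproteinases such as gelatinase B, encoded by Mmp9, which digests denatured collagen and basement membrane collagen. Timp1 encodes a secreted inhibitor of metalloproteinases, and Sdc1 encodes syndecan-1, a membrane proteoglycan whose heparan sulfate chains bind growth factors and proteases and which metalloproteinases can shed. Macrophages make all of these products in wounds and in inflamed tissue.

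Plaur, Sdc1 and Timp1 shared a pattern that Mmp9 did not show. The receptor and the proteoglycan had log2 ratios below -1.5 on all 6 arrays that set TAM against PEC, with or without LPS, and Timp1 was below 0 on all 6. All 3 were above 0 on both arrays of LPS in PEC, while on the arrays of LPS in TAM their ratios lay between -0.46 and 0.70. Mmp9 was above 0 on 9 of the 10 arrays and never beyond 1.17 in size. Of 8905 genes or features, 22 (0.247%) were below -1.5 on all 6 TAM over PEC arrays, and 287 (3.22%) were below 0 on those 6 and above 0 on both arrays of LPS in PEC. With both exchanged arrays left unturned these counts were 0 and 13 (0.146%), and the 4 genes were not among them. The plot of the 4 genes by array shows these values.

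**Figure D1:**
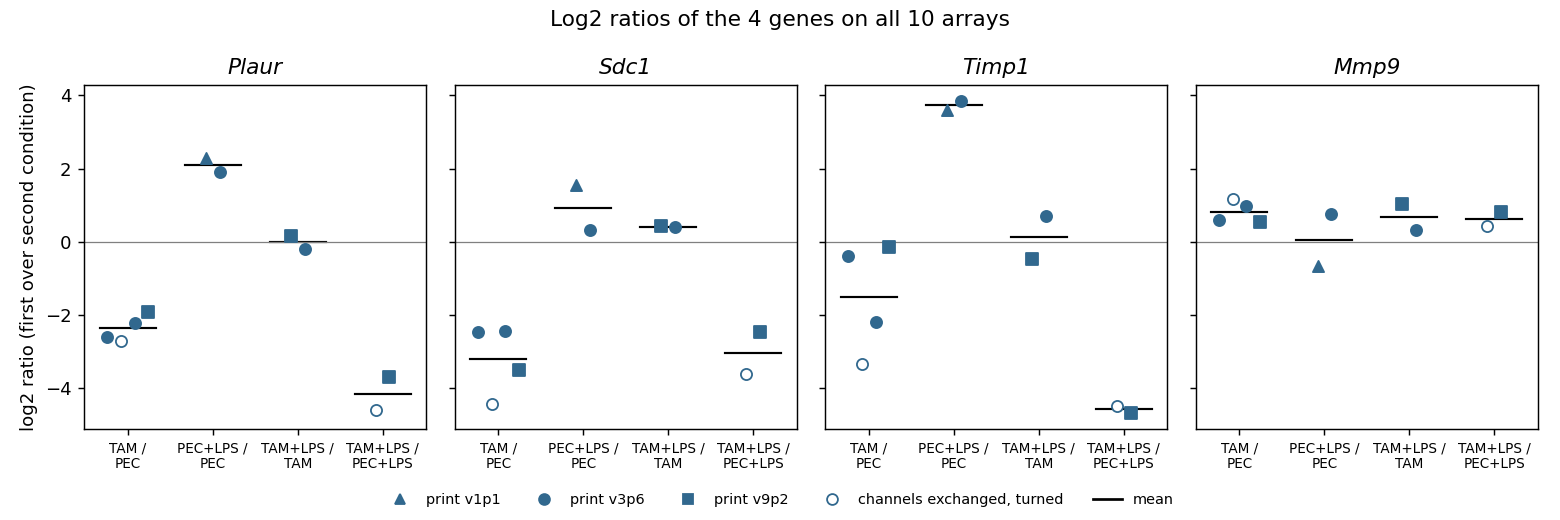
Log2 ratio (vertical axis) of Plaur, Sdc1, Timp1 and Mmp9 on each of the 10 arrays, grouped by comparison, with points for arrays and bars for the mean. Plaur and Sdc1 lie below -1.5 on the 6 arrays of TAM over PEC, Timp1 reaches 3.86 on the arrays of LPS in PEC, and Mmp9 stays between -0.67 and 1.17.

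The bases before the starts are shown for the genes that shared signs in TAM over PEC and for LPS in PEC, although the sizes differed. Whether these genes are regulated alike was not tested. RefSeq sequences of build GRCm38.p6 were matched for 3 of the 4 genes, and Mmp9 had no entry. The windows are the 250 bases before the start that the RefSeq table gives, at chr7:24462233-24462482 for Plaur (gene at chr7:24460937-24475970, so its window lies within the annotated span), chr12:8771146-8771395 for Sdc1 (gene at chr12:8771396-8793716) and chrX:20869916-20870165 for Timp1 (gene at chrX:20870166-20874737), each on the plus strand. They are upstream of the start used, and the annotation of exons was not used here. Capitals mark matches to short words searched on both strands: TGANTCA for AP-1, GGGCGG for the GC box, AGGAAG for Ets factors and TATAAA for the TATA box.
Plaur: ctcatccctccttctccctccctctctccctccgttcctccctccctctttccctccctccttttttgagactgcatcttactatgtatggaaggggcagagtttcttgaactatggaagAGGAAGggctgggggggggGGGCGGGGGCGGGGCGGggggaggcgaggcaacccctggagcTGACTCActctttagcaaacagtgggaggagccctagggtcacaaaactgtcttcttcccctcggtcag
Sdc1: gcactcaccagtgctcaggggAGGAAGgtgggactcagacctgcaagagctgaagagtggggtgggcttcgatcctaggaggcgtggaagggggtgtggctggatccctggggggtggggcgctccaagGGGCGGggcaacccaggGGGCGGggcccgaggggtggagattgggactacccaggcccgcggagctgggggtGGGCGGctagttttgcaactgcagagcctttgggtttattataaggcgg
Timp1: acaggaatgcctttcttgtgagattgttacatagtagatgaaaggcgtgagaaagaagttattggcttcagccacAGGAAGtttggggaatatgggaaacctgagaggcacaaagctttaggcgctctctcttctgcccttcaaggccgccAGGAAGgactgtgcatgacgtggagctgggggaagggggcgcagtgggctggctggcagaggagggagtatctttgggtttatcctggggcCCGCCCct
The AP-1 word stands in the Plaur window, with its first base 69 bases before the start, and in 6.75% of 32851 mouse promoter windows of the same length. The GC box word, present in 32.7% of windows, occurs 3 times in Plaur (beginning 111, 105 and 100 bases before the start, of which the last 2 overlap), 3 times in Sdc1 (121, 104 and 49) and 1 time in Timp1 (8, on the minus strand). The Ets word, present in 29.5% of windows, occurs 1 time in Plaur (130) and in Sdc1 (229) and 2 times in Timp1 (175 and 99). The TATA box word, present in 12.4% of windows, is not written in these 3 windows, and the AP-1 word is not written in those of Sdc1 and Timp1. The windows held 59.6% G and C in Plaur, 66% in Sdc1 and 54.4% in Timp1, beside a median of 52.4% over all windows. These are matches of letters, and no binding was measured.

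The first comparison asked how untreated TAM differed from untreated PEC. Plaur, the urokinase receptor, had log2 ratios of -2.60 on TAM-b, -2.70 on TAM-2R, -2.21 on TAM-3 and -1.91 on TAM-8. All 4 arrays showed less Plaur in TAM, within a narrow range. The mean was -2.36 ± 0.36 (SD, n = 4 arrays; SE 0.29), a level 5.13-fold lower in TAM, and 31 of 8905 genes or features had a lower mean. Plaur varied little between repeated arrays: its residual SD in the fit, 0.39, was larger than that of 6.28% of genes, against a median residual SD of 0.81. Sdc1 stood at -2.47 on TAM-b, -4.43 on TAM-2R, -2.44 on TAM-3 and -3.51 on TAM-8. Every array was again well below 0, with TAM-2R the lowest. Its mean of -3.21 ± 0.95 (SD, n = 4; SE 0.41) is a 9.28-fold lower level in TAM, and 8 genes or features had a lower mean.

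Timp1, the metalloproteinase inhibitor, split the 4 untreated arrays. Its log2 ratios were -0.40 on TAM-b, -3.33 on TAM-2R, -2.20 on TAM-3 and -0.14 on TAM-8. TAM-2R and TAM-3 were far below 0, whereas TAM-b and TAM-8 were close to it. The mean of -1.52 ± 1.52 (SD, n = 4; SE 0.51) therefore had a spread as large as itself, and without TAM-2R it was -0.91. The print version did not separate the arrays, since TAM-b and TAM-3 came from the same print; the 3 arrays of that print averaged -1.98 and the array of the other print gave -0.14. Mmp9, gelatinase B, had 0.59 on TAM-b, 1.17 on TAM-2R, 0.97 on TAM-3 and 0.54 on TAM-8. All 4 ratios were above 0 and small. Their mean was 0.82 ± 0.30 (SD, n = 4; SE 0.32), a level 1.76-fold higher in TAM, and 1010 genes or features had a higher mean. Mmp9 was also above 0 on the other 4 arrays outside LPS in PEC, which 89 genes or features (0.999%) shared; with both exchanged arrays left unturned 81 (0.91%) did, Mmp9 not among them.

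Plaur and Sdc1 passed the threshold over all genes in untreated TAM over PEC (limma, Benjamini-Hochberg adjusted p under 0.05), as 41 of 8905 did (0.46%), and Timp1 and Mmp9 did not. Since the genes were selected on these arrays, nothing is read from that count. Plaur was no longer past the threshold without TAM-2R (mean -2.24) or without TAM-8 (mean -2.51), and Sdc1 not without TAM-8 or with the arrays scaled to 1 spread. Neither passed with the arrays of print v3p6 alone, with the 4 arrays of the comparison alone or with only TAM1 left unturned, which leaves their means as they are. If TAM-2R is left unturned, the means are -1.01 for Plaur, -1.0 for Sdc1, 0.15 for Timp1 and 0.23 for Mmp9, and neither Plaur nor Sdc1 passes.

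LPS in PEC set Timp1 and Plaur apart from Sdc1 and Mmp9. Timp1 had log2 ratios of 3.61 on PEC1 and 3.86 on PEC2, and the arrays lay close together although they came from different prints. The mean was 3.73 ± 0.18 (SD, n = 2; SE 0.71), a level 13.3-fold higher with LPS, and 41 genes or features had a higher mean. Plaur had 2.30 on PEC1 and 1.90 on PEC2, again above 0 on both arrays. That is a mean of 2.10 ± 0.29 (SD, n = 2; SE 0.41), or 4.29-fold, with 159 genes or features higher. Sdc1 was above 0 on both arrays but unevenly so, with 1.54 on PEC1 and 0.33 on PEC2 (mean 0.93 ± 0.86, SD, n = 2; SE 0.58). Mmp9 changed sign between the arrays, with -0.67 on PEC1 and 0.76 on PEC2, and its mean was 0.05 ± 1.01 (SD, n = 2; SE 0.45). None of the 4 genes passed the threshold, which 1 of 8905 passed (0.0112%); 725 had an unadjusted p under 0.05. Both arrays carried the LPS sample in the same channel, so a dye effect of a gene does not cancel in these means.

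In TAM, the mean log2 ratios of the 4 genes for the same LPS treatment lay between -0.02 and 0.67. With n = 2 arrays and SEs of 0.41 to 0.71, a lack of response is not shown. Plaur had log2 ratios of 0.16 on TAM-trial and -0.20 on TAM-16, on either side of 0, with a mean of -0.02 ± 0.25 (SD, n = 2; SE 0.41). Timp1 had -0.46 on TAM-trial and 0.70 on TAM-16 and also changed sign, with a mean of 0.12 ± 0.82 (SD, n = 2; SE 0.71). Sdc1 gave near-equal values of 0.43 and 0.39 on the same arrays (mean 0.41 ± 0.03, SD, n = 2; SE 0.58). Mmp9 had 1.02 on TAM-trial and 0.31 on TAM-16, the highest mean of the 4 genes here at 0.67 ± 0.50 (SD, n = 2; SE 0.45). No gene or feature of 8905 passed the threshold in limma (0%), and 497 had an unadjusted p under 0.05.

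The LPS response of TAM minus that of PEC, taken as a contrast in the same fit, was -3.61 (SE 1.01) for Timp1 and -2.12 (SE 0.58) for Plaur on the log2 scale. In both genes the 2 TAM arrays lay below the 2 PEC arrays. The share of all genes with that order is not given here, so nothing is read from it. The contrast was -0.52 (SE 0.82) for Sdc1 and 0.62 (SE 0.64) for Mmp9, each smaller than its SE. In both genes the sign rested on PEC1. Without that array the contrast was 0.09 for Sdc1 and -0.09 for Mmp9, and without PEC2 it was -1.13 and 1.34. With a dye term the Sdc1 contrast was 0.06. These values describe the 4 genes and were not tested, since the genes were chosen with them in view. Over all 8905 genes or features 0 passed the threshold for this contrast in limma, and 612 had an unadjusted p under 0.05.

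With LPS on both sides and TAM1 turned, the distance between TAM and PEC was widest for Timp1 and Plaur. With TAM1 left unturned, the means were -0.10 for Timp1, 0.44 for Plaur, 0.57 for Sdc1 and 0.19 for Mmp9, so that both the sizes and their order rest on the turning. Timp1 had log2 ratios of -4.48 on TAM1 and -4.68 on TAM7. The mean of -4.58 ± 0.14 (SD, n = 2; SE 0.71) is a level 23.9-fold lower in TAM with LPS, and 4 of 8905 genes or features had a lower mean. Plaur had -4.59 on TAM1 and -3.71 on TAM7, with a mean of -4.15 ± 0.62 (SD, n = 2; SE 0.41), or 17.8-fold lower, and 7 genes or features had a lower mean. Both genes were thus far below 0 on either array. Sdc1 had -3.62 on TAM1 and -2.48 on TAM7 (mean -3.05 ± 0.81, SD, n = 2; SE 0.58; 8.29-fold lower), near its value in untreated cells. Mmp9 stayed small and above 0, at 0.43 on TAM1 and 0.82 on TAM7 (mean 0.63 ± 0.27, SD, n = 2; SE 0.45). Plaur was among the 6 genes or features past the threshold (0.0674%), and Sdc1, Timp1 and Mmp9 were not. Plaur did not pass without TAM1, when TAM7 alone gave -3.71, with either or both exchanged arrays left unturned, with the arrays of print v3p6 alone or with the arrays of the comparison alone. Timp1 passed without TAM-2R, and both Timp1 and Sdc1 passed with the arrays scaled to 1 spread, with a dye term or with the feature position subtracted; Timp1 also passed with the print as a random block.

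The 4 comparisons form a closed loop, so that untreated TAM over PEC plus the LPS response of TAM minus that of PEC should equal TAM with LPS over PEC with LPS. It is a sum of the same ratios from which the genes were chosen, and is given as a description with no test. The value by the indirect route was -4.47 for Plaur, beside -4.15 measured directly, and -5.13 for Timp1, beside -4.58 directly. For Sdc1 it was -3.73 beside -3.05, and for Mmp9 1.44 beside 0.63. The difference between the routes was -0.32 for Plaur (SE 0.77), -0.68 for Sdc1 (SE 1.08), -0.54 for Timp1 (SE 1.34) and 0.81 for Mmp9 (SE 0.85). Over all genes the median absolute gap was 0.76, and 0 of 8905 passed the threshold while 238 had an unadjusted p under 0.05.

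A fit of all 10 arrays with 1 level for each condition and a term for the dye placed the conditions in order, relative to untreated PEC on the log2 scale. The dye term can be separated only through TAM-2R and TAM1, the arrays with exchanged channels, whose turning is not settled. These levels were not fitted with those arrays left unturned. The steps describe the 4 genes and were not tested. Plaur was at -2.60 (SE 0.48) in TAM with LPS, -2.43 (SE 0.28) in untreated TAM and 1.68 (SE 0.43) in PEC with LPS. The step from untreated TAM down to TAM with LPS, 0.17 (SE 0.39), was smaller than its SE, while that from untreated PEC down to untreated TAM was 2.43 (SE 0.28). Timp1 had the same order, at -1.98 (SE 0.78) in TAM with LPS, -1.71 (SE 0.45) in untreated TAM and 2.85 (SE 0.70) in PEC with LPS. The step between the TAM conditions, 0.26 (SE 0.64), was again smaller than its SE, and that between untreated PEC and untreated TAM, 1.71 (SE 0.45), rests on the 4 arrays that split. Sdc1 fell into 2 pairs: TAM with LPS at -3.36 (SE 0.59) and untreated TAM at -3.40 (SE 0.34), against PEC with LPS at -0.02 (SE 0.53) and untreated PEC at 0 by definition. The gap between the pairs was 3.34 (SE 0.41), and the steps within the pairs, 0.04 (SE 0.48) in TAM and 0.02 (SE 0.53) in PEC, were smaller than their SEs. In this fit the dye term of Sdc1 was 0.66 (SE 0.30), and its response to LPS in PEC was -0.02 in place of the 0.93 of the direct arrays. Mmp9 was at 1.16 (SE 0.58) in TAM with LPS, 0.71 (SE 0.33) in untreated TAM and 0.30 (SE 0.52) in PEC with LPS, and its 3 neighbouring steps, of 0.30 to 0.45, were each smaller than their SE. The plot of levels by condition shows these orders.

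**Figure D2:**
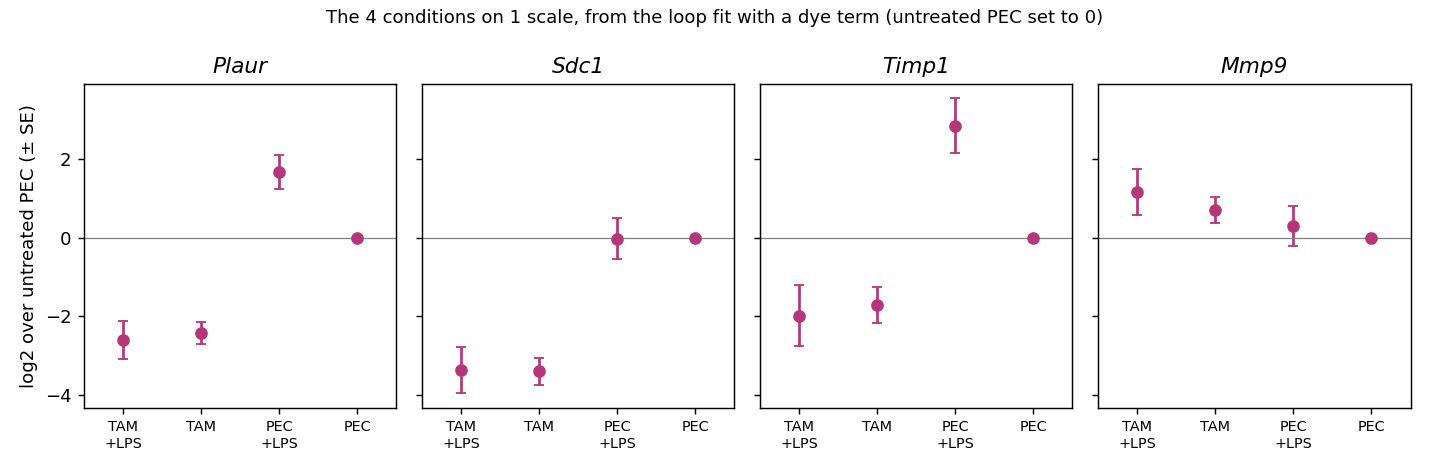
Fitted log2 level of each gene relative to untreated PEC (vertical axis) in TAM with LPS, untreated TAM, PEC with LPS and untreated PEC, with bars of 1 SE. The fit has a dye term that rests on TAM-2R and TAM1, both turned. Plaur and Timp1 are highest in PEC with LPS, Sdc1 is near -3.4 in both TAM conditions, and Mmp9 spans 1.16 from lowest to highest.

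Likeness over the 10 arrays was measured by the cosine, the correlation of log2 ratios about 0, which does not depend on which way an array is turned. It is a description over arrays that share RNA conditions and prints. Plaur was close to Sdc1 (0.91) and to Timp1 (0.90), and Sdc1 and Timp1 were less alike (0.74). Of the genes compared below, 34 were closer to Plaur than Sdc1 was and 42 closer than Timp1 was, while 139 were closer to Sdc1 than Timp1 was, so the likeness was not particular to these genes. Mmp9 ran opposite to all 3, at -0.65 with Plaur, -0.74 with Sdc1 and -0.52 with Timp1. Among 2775 named genes with a root mean square ratio of at least 1, those most like Plaur were Pltp (phospholipid transfer protein), Gstm1 (a glutathione transferase), Ctsd (the lysosomal protease cathepsin D), Mdm2 (the ubiquitin ligase of p53) and Il17ra (an interleukin-17 receptor chain), with cosines of 0.96 to 0.97. Ctsd, for example, averaged -2.12 in untreated TAM over PEC and -3.29 in TAM with LPS over PEC with LPS. Those most like Sdc1 were Tle5, Fcna (ficolin A, a lectin), Ccl6 (a chemokine), Retnla (a secreted resistin-like protein) and Slpi (an inhibitor of leukocyte elastase), at 0.95 to 0.96. Fcna had log2 ratios between -6.04 and -4.09 on the 6 arrays of TAM over PEC, lower than Sdc1 on each. Timp1 was most like Il17ra (0.96), Gch1 (GTP cyclohydrolase, at 0.94), Atp6v1e1 (a subunit of the proton pump of lysosomes), Plpp3 and Cd99 (0.92). Mmp9 was most like Bgn (biglycan, a matrix proteoglycan, 0.91), Slc25a10, Septin5, Sema4g and Gstt1 (0.84). The plot of these genes shows the arrays one by one.

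**Figure D3:**
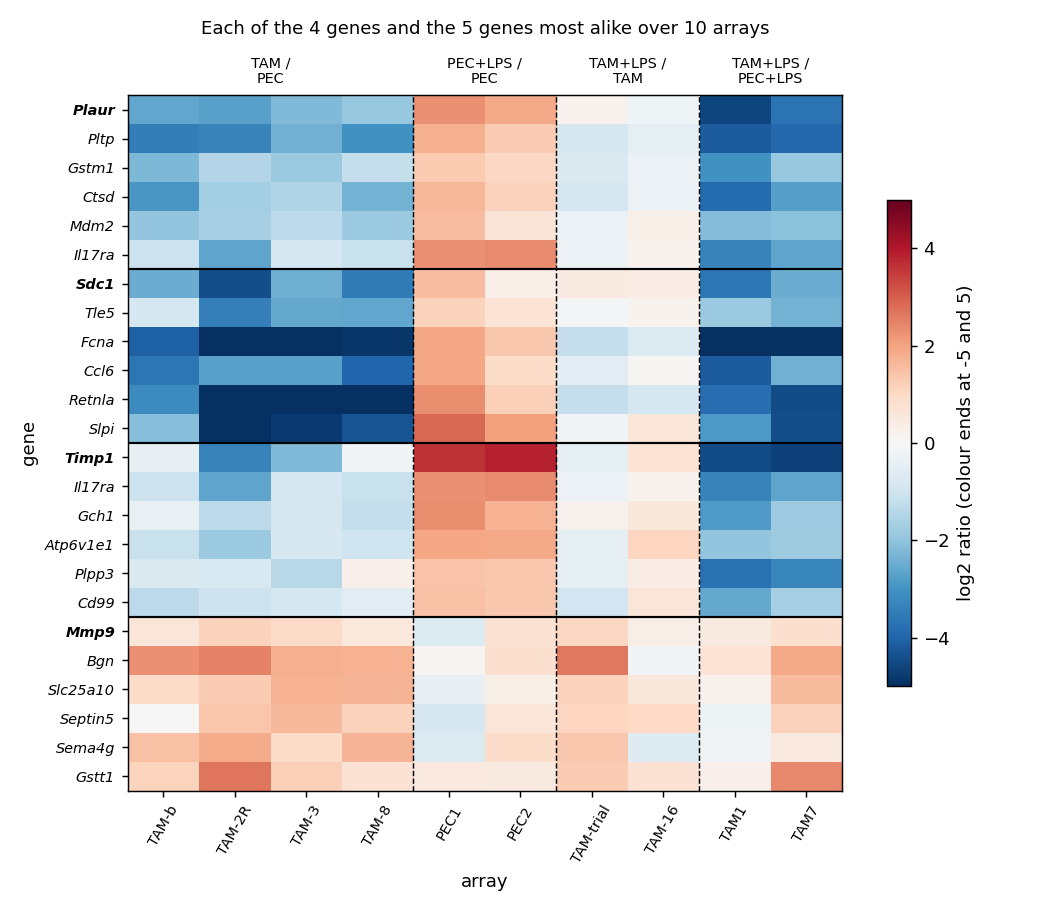
Log2 ratios on the 10 arrays (columns, grouped by comparison) of the 4 genes and of the 5 genes with the highest cosine to each (rows), with colour from low to high. The rows around Plaur, Sdc1 and Timp1 are below 0 in TAM over PEC, except Plpp3 at 0.26 on TAM-8, and above 0 for LPS in PEC, and those around Mmp9 are mostly above 0 in TAM over PEC.

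The other genes of pericellular proteolysis were read from 6 lists with 198 genes, of which 134 were measured. The lists too were chosen with earlier results of these data known. Their shares past the threshold and adjusted p-values are therefore a description, and nothing is read from an excess over all genes. In untreated TAM over PEC, 4 of the 134 passed the threshold (2.99%), all lower in TAM, beside 41 of all 8905 (0.46%), of which 30 were lower. An unadjusted p under 0.05 was reached by 40 of the 134 and by 1274 of the 8905. By sign, 61 lay above 0 and 73 below, with a median log2 ratio of -0.11. The 4 were F7, coagulation factor VII, at -2.97 ± 0.85 (adjusted p = 0.00997), Slpi at -4.31 ± 1.64 (adjusted p = 0.0122), Ctsd at -2.12 ± 0.64 and Ctsb, cathepsin B, at -2.06 ± 0.52 (SD, n = 4 arrays; adjusted p = 0.0367 for both, limma). All 4 were below 0 on each of the 4 arrays. F7 did not pass without TAM-8, Slpi not without TAM-2R, TAM-3 or TAM-8, Ctsb passed in 3 of the 10 fits that left out an array, and Ctsd passed in 0 of them. The count was 2 without any 1 of PEC1, PEC2, TAM-3, TAM1 or TAM7, 1 without TAM-2R, 0 without TAM-8 and 0 with either exchanged array unturned. In the other 3 comparisons 0 of 134 passed, while 19 had an unadjusted p under 0.05 for LPS in PEC, 9 for LPS in TAM and 35 for TAM with LPS over PEC with LPS, beside 725, 497 and 801 of all 8905.

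The plasminogen activation list, nearest to Plaur, had 28 of 36 genes measured. It also holds coagulation genes (such as F3, F7 and F10) and integrin chains (such as Itgam and Itgb2), so its medians are not those of plasminogen activation alone. Its median log2 ratio was -1.05 in untreated TAM over PEC, with 21 of 28 genes below 0, and -1.19 in TAM with LPS over PEC with LPS, with 20 below. With LPS the median was 0.42 in PEC and -0.33 in TAM. The medians over all genes were -0.02 in untreated TAM over PEC, 0.08 with LPS on both sides, -0.04 for LPS in PEC and -0.13 for LPS in TAM. F7 was the only gene of this list past the threshold in any comparison. Urokinase itself, encoded by Plau, averaged 0.31 ± 1.72 (SD, n = 4; adjusted p = 0.816) in untreated TAM over PEC, with 2 arrays on either side of 0. Plat, the tissue-type activator, averaged 0.14 ± 0.46 (adjusted p = 0.851) there, and Itgam, the CD11b integrin chain, -0.41 ± 1.11 (adjusted p = 0.691). Serpinb2, which encodes the plasminogen activator inhibitor PAI-2, was below 0 on all 4 arrays at -2.41 ± 1.2, and its adjusted p of 0.0546 missed the threshold. In TAM with LPS over PEC with LPS, F10 (coagulation factor X) at -3.64 ± 1.03 and F3 (tissue factor) at -3.13 ± 0.59 had the largest means (SD, n = 2; limma adjusted p = 0.165 and 0.242).

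The metalloproteinase list, with 20 of 33 genes measured, had a median near that of all genes in untreated TAM over PEC (-0.09), and none of its genes passed in any comparison. Mmp12, the macrophage elastase, averaged -2.42 ± 1.16 (SD, n = 4; limma adjusted p = 0.0892) there and Mmp2, gelatinase A, 0.90 ± 0.88 (adjusted p = 0.305), a mean close in size to that of Mmp9. Mmp14, a membrane-bound metalloproteinase that activates gelatinase A, averaged 1.36 ± 0.78 (adjusted p = 0.168) in untreated TAM over PEC and 2.38 ± 0.44 (SD, n = 2; adjusted p = 0.251) for LPS in PEC. Cd44, a hyaluronan receptor that can hold gelatinase B at the surface, averaged -1.43 ± 0.76 in untreated TAM over PEC and -2.70 ± 0.15 with LPS on both sides (limma adjusted p = 0.24 and 0.226). Of the protease inhibitors, 18 of 30 were measured, with 13 below 0 in untreated TAM over PEC and a median of -0.28. Besides Slpi, the largest mean there was that of Serpinh1, a collagen chaperone rather than an inhibitor, at 2.46 ± 1.64 (SD, n = 4; limma adjusted p = 0.0964).

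Cathepsins and serine proteases, with 21 of 33 genes measured, had medians of -0.24 in untreated TAM over PEC, 0.48 for LPS in PEC, -0.30 for LPS in TAM and -0.59 in TAM with LPS over PEC with LPS. Besides Ctsb and Ctsd, Ctsl (cathepsin L) averaged -2.26 ± 1.99 in untreated TAM over PEC (SD, n = 4; limma adjusted p = 0.221) and -4.17 ± 0.54 with LPS on both sides (n = 2; adjusted p = 0.217). The list of syndecans and heparan sulfate genes, nearest to Sdc1, had 23 of 37 measured, 15 above 0 in untreated TAM over PEC and none past the threshold. Sdc4, another syndecan, differed from Sdc1 in its values: it averaged -0.26 ± 0.99 in untreated TAM over PEC, 3.63 ± 0.91 for LPS in PEC and 2.69 ± 0.97 for LPS in TAM (SD, n = 4, 2 and 2; limma adjusted p = 0.792, 0.165 and 0.827). Sdc2 averaged -1.26 ± 3.01 in untreated TAM over PEC, with 1 array far from the rest. Of the bound growth factors and matrix ligands, 24 of 29 were measured, with 18 above 0 there and a median of 0.46. Hbegf, a heparin-binding growth factor of the EGF family, averaged 0.67 ± 1.49 (SD, n = 4; limma adjusted p = 0.595), and Sparc, a collagen-binding matrix protein, 4.23 ± 3.46 (adjusted p = 0.123). Igf1, insulin-like growth factor 1, was below 0 on all 4 arrays at -2.29 ± 1.2 (SD, n = 4; limma adjusted p = 0.0734). The plot of the lists sets these genes beside the 4.

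**Figure D4:**
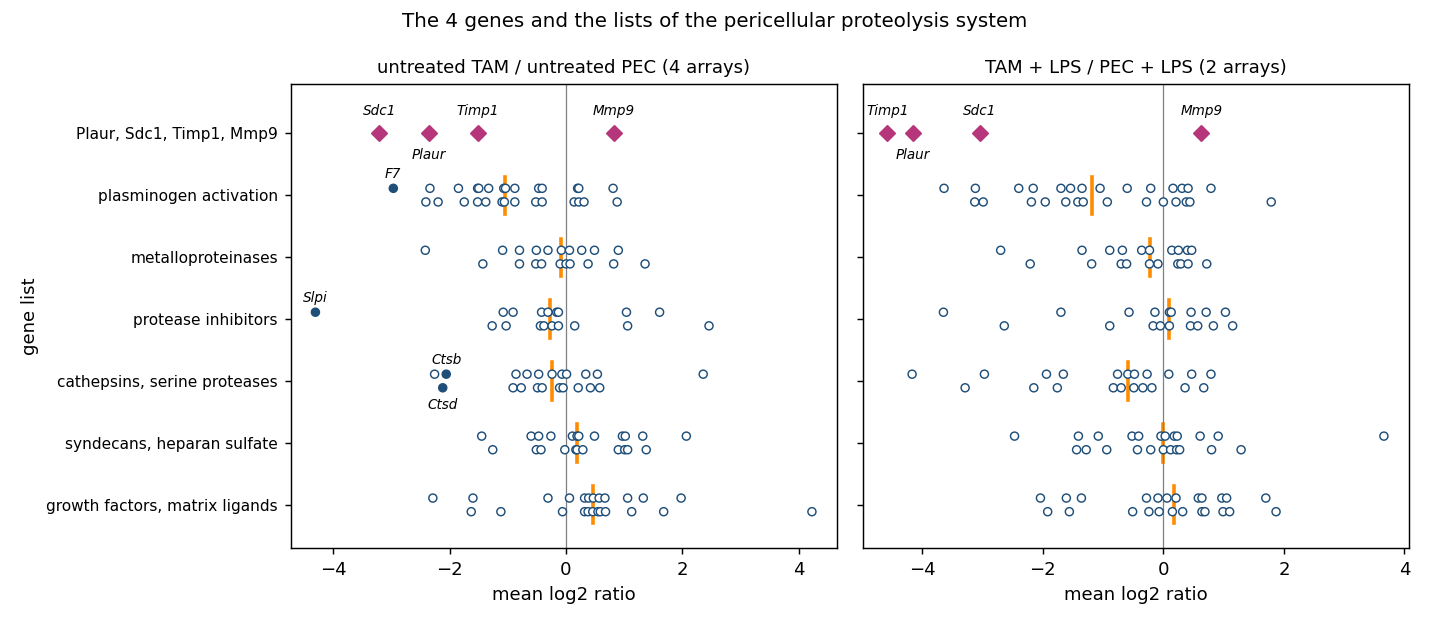
Mean log2 ratio (horizontal axis) of Plaur, Sdc1, Timp1 and Mmp9 (diamonds) and of the measured genes of 6 lists (circles, with an orange bar at each list's median) in untreated TAM over PEC, left, and TAM with LPS over PEC with LPS, right. Filled circles passed the threshold, which F7, Slpi, Ctsb and Ctsd did on the left and none did on the right. The plasminogen activation list, which also holds coagulation and integrin genes, has the lowest list median in both, -1.05 and -1.19.

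RNA came from whole cell preparations, in which fewer cells of a type and less RNA per cell cannot be told apart, and ratios do not show whether a marker is absent. Of 17 macrophage markers 13 were measured. In untreated TAM over PEC their median log2 ratio was -0.66, with array medians from -1.01 to 0.08, 9 genes below 0 and 4 above. In TAM with LPS over PEC with LPS the median was -1.12, with 11 of 13 below 0. Cd68, a lysosomal macrophage marker, averaged -1.74 ± 1.41 in the first and -3.50 ± 0.25 in the second (SD, n = 4 and 2, limma adjusted p = 0.241 and 0.199). Cx3cr1 went the other way in the first, at 1.70 ± 1.13 and above 0 on all 4 arrays (SD, n = 4, limma adjusted p = 0.214). Fibroblast and stroma markers had a median of 1.02 in untreated TAM over PEC (14 of 20 measured, array medians from 0.34 to 1.85) and 0.68 with LPS on both sides, and neutrophil markers 0.88 (10 of 17, from -0.15 to 2.15) and -0.04. For B and plasma cells, of which Sdc1 is also a marker under the name CD138, 11 of 19 were measured with a median of 0.00 (array medians from -0.83 to 0.21). The medians in untreated TAM over PEC were -0.12 for epithelial and mesothelial cells (9 of 15), 0.15 for endothelial cells (8 of 11) and -0.22 for T and NK cells (11 of 16). No marker of any list passed the threshold in any comparison. For LPS in PEC the median was 0.77 for macrophage markers (10 of 13 above 0, array medians from 0.76 to 1.08). It was 0.88 for neutrophil markers (6 of 10 above 0 and 4 below, array medians from 0.63 to 1.01). Padi4, a neutrophil enzyme that citrullinates proteins, had the highest mean of these at 6.17 ± 0.50 (SD, n = 2, limma adjusted p = 0.182). Mpo had the lowest at -1.42. For LPS in TAM the macrophage markers had a median of -0.78 (11 of 13 below 0, array medians from -1.21 to 0.19) and the neutrophil markers 0.21. The part of these markers in the values of Plaur, Sdc1, Timp1 and Mmp9 was not tested.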

How the data were processed

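The deposited values, which the authors give as log ratios of the channels, were read as log2: in base e the extreme of 11.687 would exceed what a 16-bit scanner can record. The scanning, background correction, filtering, normalization and dye steps are not given in the sources available, and the log base is not stated. The array medians lay between -0.199 and 0.022 and the scaled median absolute deviations between 0.688 and 1.165. No value was missing; of 9596 features, 7486 had 1 gene symbol in the platform table, 483 several and 1627 none. Features of 1 gene were averaged, giving 6795 named genes and 8905 genes or features. Per the labels, the arrays came from prints v9p2 (TAM-trial, TAM7, TAM-8), v1p1 (PEC1) and v3p6 (all others).

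All 10 arrays entered a single fit in limma 3.58.1 (R 4.3.3; functions lmFit, eBayes), in which every comparison had its own mean, with 6 residual and 3.84 prior degrees of freedom, and two-sided p-values adjusted by the Benjamini-Hochberg method over 8905 at a threshold of 0.05; the fit was tested on simulated data. SDs are over arrays and SEs come from the fit. The 4 genes, the lists and the alternatives were chosen with earlier results of these data known. Genes were named by rule: the 4; list genes past the threshold; from each list and comparison, those with the largest means; 16 fixed genes, of which 11 were measured; and the 5 most alike in cosine to each of the 4. Of these, the text gives those that bear on the 4 genes. Promoter words were searched as plain letters. Precision is limited by the number of arrays. Alternatives were the turning, scaling and centring of arrays, a dye term, the print as a block or alone, the arrays of a comparison alone, the feature position and leaving out each array.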

Additional observations from a re-analysis of the deposited data

Results flagged for a closer look

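Plat, the tissue-type plasminogen activator, had a log2 ratio of 0.82 on TAM-3 in untreated TAM over PEC, far from the other 3 arrays, which lay between -0.15 and -0.03. Sdc2, syndecan-2, had -5.76 on the same array, where the other 3 lay between -0.10 and 0.57. Thy1, a marker of T cells and of stroma, had -3.49 on TAM-2R, where the others lay between 0.26 and 0.78. Il17ra had -2.64 on TAM-2R (others -1.11 to -0.83), and Retnla -3.18 on TAM-b (others -5.88 to -5.47). Among the 95 named genes examined, these 5 had an array that stood apart, and chance alone marks about 1 in 20.

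In 15 of the 95 named genes examined LPS gave opposite signs on both arrays of TAM and both of PEC. With so few arrays on each side, random signs alone also give this pattern in some genes. The share over all genes is not given here, so the 15 are not read as an excess. The named genes were also chosen in part for large means or for likeness to Plaur, Sdc1, Timp1 or Mmp9. In Plat, LPS gave 0.26 and 0.12 on the TAM arrays and -0.29 and -0.42 on the PEC arrays, a difference of 0.55 (limma interaction, adjusted p = 0.998). In Serpinb2, the PAI-2 gene, LPS gave -0.59 and -0.02 on the TAM arrays and 1.11 and 0.93 on the PEC arrays, a difference of -1.33 (limma interaction, adjusted p = 0.872). The response of TAM minus that of PEC was also above 0 for Serpinf2 (1.37) and Sparc (0.43). It was below 0 for the coagulation genes F7 (-0.85) and F3 (-2.25), the proteases Adam8 (-2.44), Ctsd (-1.98) and Ctsl (-3.32), Pdgfb (-2.09) and the macrophage marker Cd68 (-3.30). It was below 0 as well for Pltp (-2.16), Gstm1 (-1.66), Fcna (-2.57) and Retnla (-2.77), which were chosen for their likeness to Plaur or Sdc1. None of the 15 differences passed the threshold (limma adjusted p from 0.719 to 0.998).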

How the results depend on the processing

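With TAM-2R and TAM1 not turned, Plaur in TAM with LPS over PEC with LPS was 0.44 in place of -4.15, and likewise with only TAM1 not turned. The -4.59 of TAM1 then enters the mean with its sign reversed, beside -3.71 on TAM7. Of the other values of the 4 genes under an alternative, 442 were labelled as the same and 32 as moved, and some of both kinds changed sign. The 442 are not a measure of stability. Many could not change. Leaving out or turning an array outside a comparison returns the same mean, as does the single feature of a gene. They also hold differences between the routes of the loop, such as -4.91 for Plaur with only TAM1 not turned, in place of -0.32. Sdc1 in TAM with LPS over PEC with LPS was 0.57 with TAM1 not turned.

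Genes past the threshold numbered 41 in untreated TAM over PEC, 1 for LPS in PEC, 0 for LPS in TAM and 6 in TAM with LPS over PEC with LPS. In that order of comparisons, the counts that moved were as follows. With neither exchanged array turned they were 0, 2 and, for LPS on both sides, 0; with only TAM-2R not turned 0, 2 and 0; with only TAM1 not turned 0 for the first and 0 for the last. With arrays scaled to 1 spread they were 12, 3, 1 and 97. The fit with a dye term gave 26, 0 and, for the last, 131, the print as a random block gave 14 for the last, and print v3p6 alone gave 0, 0 and 0 for the last. The arrays of a comparison alone gave 2, 0 and, for the last, 0, and subtracting the feature position gave 5 for LPS in PEC and 16 for the last. Leaving out 1 array gave 6 (TAM-8) to 24 (TAM-trial or TAM-16) in place of 41, below it for each of the 10 arrays. It gave 1 to 85 for LPS in PEC, with 85 without PEC1 and 48 without PEC2, and 0 to 3 for LPS in TAM, with 3 without TAM-16. With LPS on both sides it gave 3 (PEC1, PEC2, TAM1, TAM-trial or TAM-16) to 11 (TAM-2R). Behind each count of 0 over all genes in limma, 84 to 1120 genes or features had an unadjusted p under 0.05, and behind each 0 of the list genes in untreated TAM over PEC, 12 to 34.

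Of the 134 list genes, the 4 past the threshold in untreated TAM over PEC became 0 with either or both arrays not turned, 2 with arrays scaled, 2 with a dye term, 7 with the print block, and 0 in v3p6 alone or in the 4 arrays alone, and 0 to 4 without 1 array. In TAM with LPS over PEC with LPS, 0 became 11 with arrays scaled, 11 with a dye term, 1 with the print block and 1 with the feature position, and 0 to 1 without 1 array. The settings with only TAM-2R or only TAM1 not turned, the counts of list genes, and the sign patterns with arrays not turned were added after seeing the data. No paired analysis was possible because the array names in the labels share fewer than 2 numbers between any pair of comparisons (TAM-b and TAM-trial carry none). Intensities were not used here, so dim spots could not be weighed.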
